A study of Homo sapiens with 6 samples.

Results

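RAB genes encode the largest family of small GTPases in human cells. Here they were taken as the protein-coding genes whose symbol is RAB followed by a number, then at most 1 letter and at most 1 digit, which leaves out their effectors and regulators. By this rule 62 RAB genes were found among the 62438 gene identifiers of the count table. Expression was compared between 3 libraries from cells in which N6AMT1 had been silenced and 3 control libraries, and 51 of the 62 genes had counts enough to be tested. Of these 51, 8 were downregulated (15.7%) and 7 upregulated (13.7%), where 11.5% and 9.78% of all tested genes were, and the changes were small. RAB27B, a gene of regulated secretion, had the largest rise of those called and RAB21, a gene of early endosomes, the largest fall.

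The libraries were made from human breast cancer cells, labelled as the line MDA-MB-453, after transfection with 10 nM of siRNA and harvest at 48 h. One group received an siRNA against N6AMT1 (si-N6AMT1, n = 3) and the other a scrambled siRNA (si-CN, n = 3). Both groups went through the same lipid transfection, and no untransfected cells are among these samples. The study asked how loss of N6AMT1, which it describes as the enzyme that writes N6-methyladenine (6mA) into DNA, changes expression in breast cancer cells. The knockdown is transient and is aimed at 1 gene in 1 cell line. No second siRNA or rescue is labelled among these samples. Loss of N6AMT1 and other effects of the siRNA therefore cannot be told apart. The labels do not name the siRNA sequence or say whether the triplicates were separate cultures. The p-values thus measure the spread between these libraries, which may be technical.

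A RAB protein is a switch that sits on membranes in its GTP-bound state and is released from them in its GDP-bound state. Exchange factors (GEFs) load GTP and GTPase-activating proteins (GAPs) trigger its hydrolysis, while a lipid added at the C terminus holds the protein in the membrane and GDP dissociation inhibitors (GDIs) carry it through the cytosol. Each RAB marks certain compartments, from the endoplasmic reticulum (ER) and the Golgi to endosomes, lysosomes and secretory vesicles, and recruits effectors such as tethers and motors. In breast epithelial tumor cells, RAB genes of secretion and recycling are known for their part in integrin traffic, exosome release and invasion.

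N6AMT1 (ENSG00000156239) had 61, 72 and 60 counts in the si-N6AMT1 libraries and 136, 135 and 141 in the si-CN libraries, so each knockdown library lay below each control. By edgeR's quasi-likelihood test, here and throughout, its log2 fold change was -1.10 with a standard error (SE) of 0.119 and an adjusted p (FDR) of 3.65e-07. Totals ranged from 19739247 to 21289740 counts per library. Of 9 luminal epithelial markers, 4 were at 10 TPM or more in every library, KRT8 and KRT18 among them, whereas 2 were below 1 TPM in every library. All 5 basal markers were above 10 TPM in every library, including KRT5 at 756 to 825 TPM, so the markers go against a purely luminal line and the cells are called here by their label only. The luminal markers KRT8 and KRT18 and the basal markers KRT5, KRT14 and TP63 rose, by 0.08 to 0.18 on the log2 scale. Among the leukocyte markers, PTPRC and CD3E had at most 3 counts per library, and CD68, which also encodes a lysosomal protein, rose from 182–187 TPM to 253–268 TPM (log2 fold change 0.50, FDR = 1.64e-12). The 3 endothelial markers in the table stayed below 1 TPM and the summed fibroblast markers at 18.1 to 19.6 TPM in both groups, and the part of these markers in the RAB results was not tested.

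RAB expression in control cells was led by genes of the endolysosomal and early secretory routes. Levels are given as TPM, the count per length of each gene's reference transcript scaled to the same sum in every library. RAB7A, which directs traffic to late endosomes and lysosomes, was highest at 416 ± 1.93 TPM (SD, n = 3) and ranked 306 among 20019 protein-coding genes. Its 3 control values lay above those of every other RAB gene. RAB1B, which acts in transport from the ER to the Golgi, had 240.1 ± 5.19 TPM, and RAB5C, a fusion factor of early endosomes, had 235 ± 4.99 TPM. The si-CN values of this pair overlapped, so their order is not resolved. RAB13, a gene of junction assembly and exocytosis, followed at 192 ± 0.958 TPM, RAB6A, which drives Golgi traffic, at 142 ± 1.89 TPM, and RAB1A, the paralog of RAB1B, at 125 ± 3.15 TPM, and these neighbours did not overlap in si-CN. In all, 40 RAB genes had at least 10 TPM in si-CN, 6 had at least 100 TPM, 9 lay between 1 and 10 TPM, and 13 were below 1 TPM.

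The low end held the 13 RAB genes below 1 TPM in si-CN. The 11 genes that could not be tested were RAB3C, RAB6C, RAB6D, RAB9B, RAB25, RAB33A, RAB37, RAB39A, RAB39B, RAB42 and RAB44. None had more than 5 counts in any library, and RAB6D had 0 in every library. RAB25, an epithelial relative of RAB11, was at 0.0683 ± 0.0591 TPM in si-CN. Among tested genes, RAB3B, a gene of regulated exocytosis, was lowest at 0.485 ± 0.0870 TPM. At these depths a difference between groups in such genes was not detectable.

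The summed level of the RAB family overlapped between groups. Over the 62 genes the sum was 2678 to 2735 TPM in the si-N6AMT1 libraries and 2684 to 2756 TPM in the si-CN libraries. RAB genes took 0.320% of all counts in si-CN and 0.320% in si-N6AMT1 libraries. The 12 tested genes of ER and Golgi transport, with 3 untested relatives, summed to 614 to 638 TPM in the si-N6AMT1 libraries and 646 to 662 TPM in the si-CN libraries, which did not overlap. Groups did not overlap for 34.9% of all single tested genes either. The largest terms of this sum, as means from si-CN to si-N6AMT1, were RAB1B (240 to 227 TPM), RAB6A (142 to 125 TPM) and RAB1A (125 to 135 TPM). The sums of the other 5 roles overlapped between groups.

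Single RAB genes moved in both directions. At FDR under 0.05, 8 of 51 were downregulated (15.7%), where 11.5% of all 17320 tested genes were, and 7 were upregulated (13.7%), against 9.78% of all tested genes. All 15 lay among the 40 RAB genes with a mean of at least 10 CPM (counts scaled to library size), and of all tested genes at that level 18.4% were downregulated and 14.4% upregulated. The 51 genes had a median change of -0.00 on the log2 scale, beside 0.00 over all tested genes. The groups of libraries did not overlap for 18 RAB genes (35.3%), 9 lower and 9 higher after si-N6AMT1, close to the 34.9% over all tested genes. Only 3 called genes, RAB27B, RAB21 and RAB38, changed by at least 1.2-fold, and none of the 15 changed by 1.5-fold. Fewer cells of a type and less RNA per cell cannot be told apart in these bulk libraries.

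**Figure D1:**
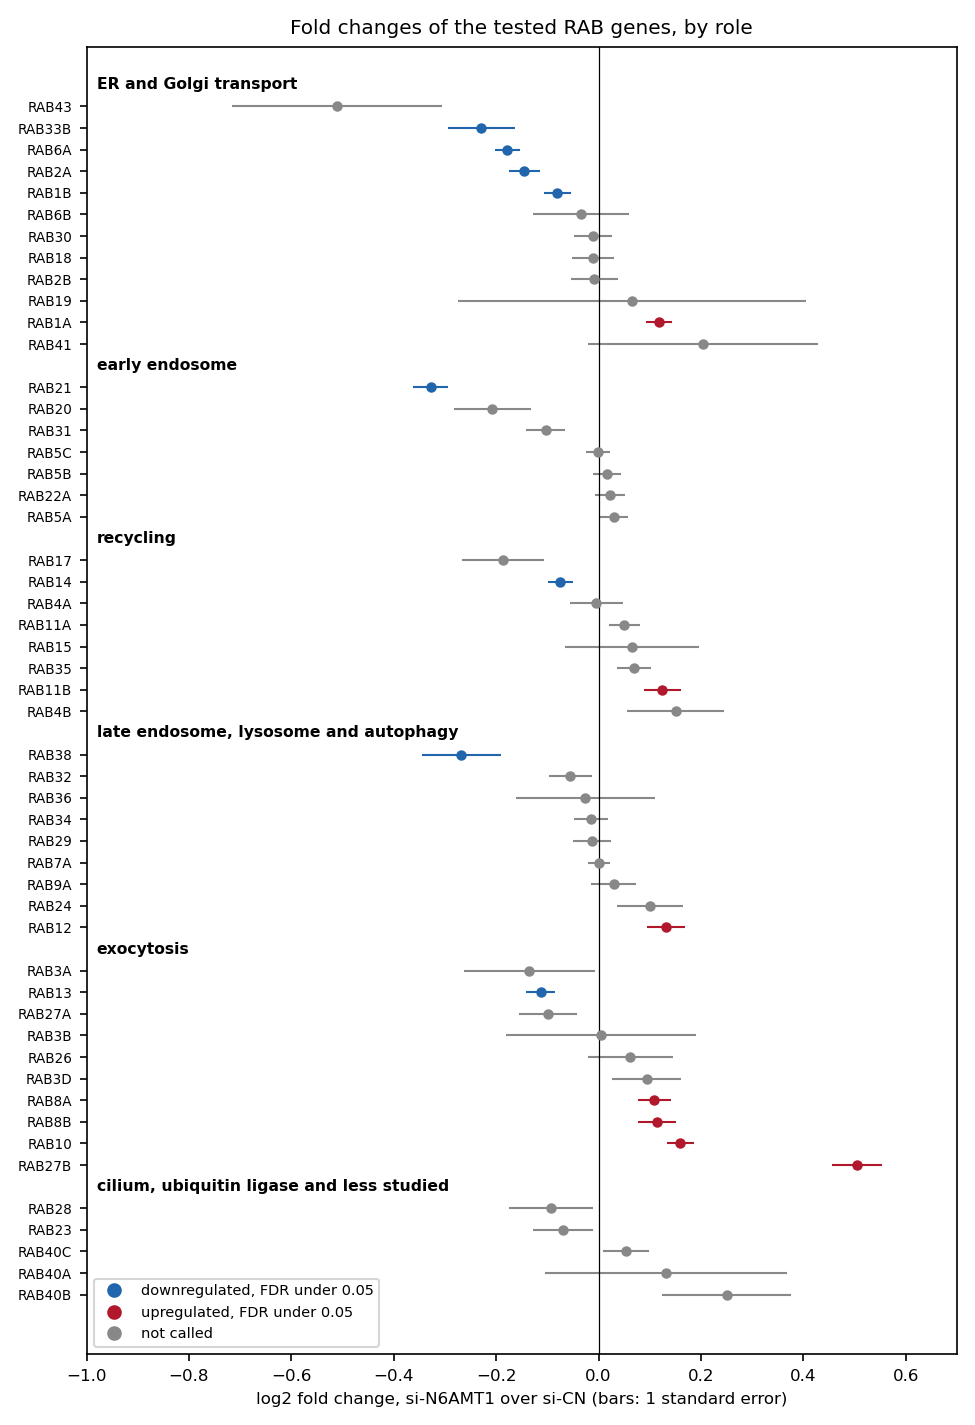
Log2 fold change, si-N6AMT1 over si-CN, of the 51 tested RAB genes, grouped by role, with bars of 1 standard error. The 8 downregulated genes are blue, the 7 upregulated genes red and the 36 others grey, and RAB43, at -0.51, has a wide bar and was not called.

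Precision differed widely between members. The 22 RAB genes at 50 CPM or more had a median standard error of 0.0295 on the log2 scale, and 11 of them were called. The 11 tested genes below 10 CPM had a median standard error of 0.131, so that changes as small as those of most called genes were not detectable there. Of the 36 genes not called, 26 had an absolute log2 fold change under 0.1. The 6 genes RAB27B, RAB21, RAB6A, RAB10, RAB2A and RAB1A kept their call under all 12 alternatives of test, scaling, filter and libraries, whereas the other 9 lost it under at least 1, and none of the 15 changed direction. DESeq2 called these 6 alone among RAB genes, and RAB13 and RAB12, with adjusted p of 0.0626 and 0.133, lost their call under that test only.

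**Figure D2:**
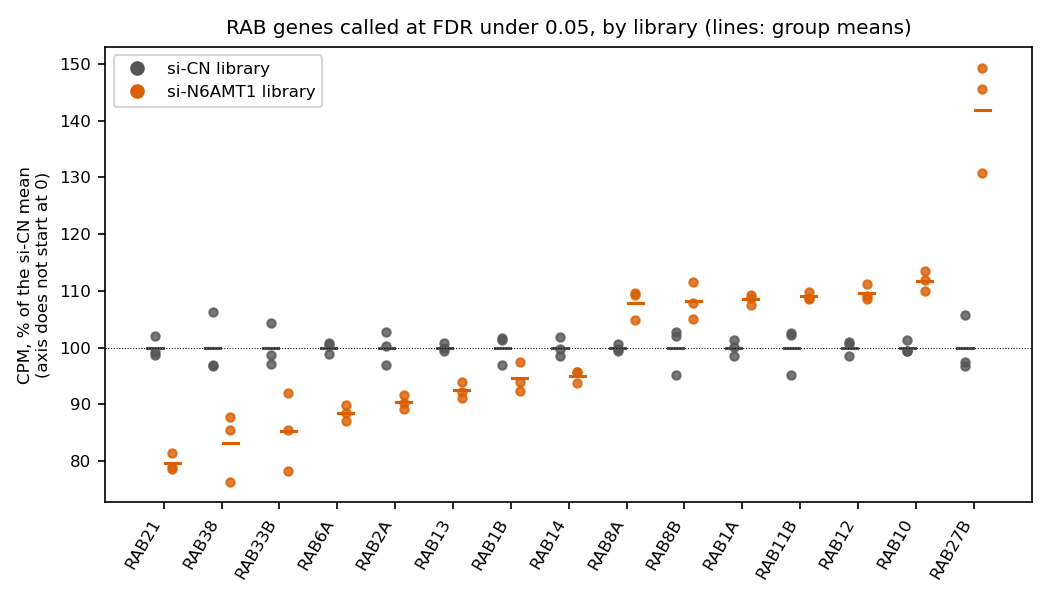
Each of the 15 called RAB genes in every library, as CPM in percent of the gene's si-CN mean (the axis does not start at 0), with group means as lines. Groups do not overlap for 14 of the 15, RAB1B being the exception. This adds no support to the calls, since the genes were chosen by FDR in these same libraries. RAB27B has the highest mean in percent.

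Genes of ER and Golgi transport held 4 of the 8 downregulated RAB genes and 1 of the 7 upregulated. The 4 were among 12 tested genes of this role (33.3%), where 11.5% of all tested genes were downregulated. At 10 CPM or more they were 4 of 9 (44.4%), where 18.4% of all tested genes were. No test was run on the role. DESeq2 called 2 of the 12 downregulated and 1 upregulated. RAB6A (ENSG00000175582, chr11:73386683-73472182, minus strand, GRCh37), which moves vesicles within the Golgi and back to the ER, had 184, 190.3 and 187 CPM in the si-N6AMT1 libraries and 213, 209 and 214 CPM in the si-CN libraries. Every si-N6AMT1 library lay below every si-CN library (log2 fold change -0.18, SE 0.0238, FDR = 6.6e-06), and RAB6C and RAB6D, which share words of sequence with RAB6A, had at most 1 count in any library. RAB2A (ENSG00000104388), which acts between the ER, the Golgi and late endosomes, had 90.3, 89.2 and 91.7 CPM in the si-N6AMT1 libraries and 103, 100.3 and 97 CPM in the si-CN libraries. It was also lower in every knockdown library (log2 fold change -0.15, SE 0.0302, FDR = 0.00109). RAB33B (ENSG00000172007, chr4:140374386-140397763, plus strand), a Golgi GTPase that binds the autophagy protein ATG16L1, had 16.4, 19.2 and 17.9 CPM in the si-N6AMT1 libraries and 21.9, 20.3 and 20.7 CPM in the si-CN libraries. The groups were apart (log2 fold change -0.23, SE 0.0657, FDR = 0.0143), but the call was lost without si-N6AMT1 replicate 1 (FDR = 0.0880), without si-CN replicate 1 (FDR = 0.0600) and after a correction for GC content (FDR = 0.0550).

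The RAB1 paralogs, both GTPases of ER to Golgi transport, moved in opposite directions. RAB1A (ENSG00000138069, chr2:65297830-65357465, minus strand) had 148, 149 and 149.8 CPM in the si-N6AMT1 libraries and 135, 137 and 139 CPM in the si-CN libraries. It was higher in every si-N6AMT1 library (log2 fold change 0.12, SE 0.0252, FDR = 0.00142). RAB1B (ENSG00000174903, chr11:66036061-66044963, plus strand) had 200.1, 193 and 189.5 CPM in the si-N6AMT1 libraries and 209, 208 and 199 CPM in the si-CN libraries. Here the groups overlapped, since si-N6AMT1 replicate 1 exceeded si-CN replicate 3 (log2 fold change -0.08, SE 0.0267, FDR = 0.0337), and the call was lost without si-N6AMT1 replicate 2 or 3 (FDR = 0.0986 and 0.171) and without si-CN replicate 1 or 2 (FDR = 0.110 and 0.125). After the correction for GC content the log2 fold change of RAB1B was -0.13 (FDR = 0.00113). Of the other tested genes of this role, RAB18, which acts at the ER and lipid droplets, and RAB30 of the Golgi both had a log2 fold change of -0.01 and were not called.

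RAB43, another Golgi GTPase, had the lowest log2 fold change of all tested RAB genes without being called. It had 17.6, 10.2 and 6.92 CPM in the si-N6AMT1 libraries and 12.6, 22.3 and 14.5 CPM in the si-CN libraries, which overlapped (log2 fold change -0.51, SE 0.206, FDR = 0.0846). Without si-N6AMT1 replicate 1 its log2 fold change was -0.94 (FDR = 0.000806) and without si-CN replicate 1 it was -0.67 (FDR = 0.0190), whereas it shrank to -0.24 without si-N6AMT1 replicate 3 (FDR = 0.434) and to -0.23 without si-CN replicate 2 (FDR = 0.491). RAB43 shares 88.3% of its 31-base words, the unit that kallisto matches, with the readthrough gene ISY1-RAB43, so reads of the pair could be divided in many ways. Their summed counts were less variable, with 79.7, 73.6 and 72.8 CPM in si-N6AMT1 and 86, 88 and 85 CPM in si-CN libraries. The sum was lower in every knockdown library, with a log2 ratio of -0.20 (two-sided exact permutation test, p = 0.1, the smallest that 3 libraries against 3 allow).

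Early endosomes were represented by 7 tested genes, of which RAB21 was downregulated (14.3%, where 11.5% of all tested genes were). All 7 were at 10 CPM or more, and of all tested genes at that level 18.4% were downregulated. RAB21 (ENSG00000080371, chr12:72148643-72194066, plus strand), which binds integrins and guides their uptake and return, had 55.3, 55.5 and 57.2 CPM in the si-N6AMT1 libraries and 71.8, 69.8 and 69.5 CPM in the si-CN libraries. The knockdown libraries lay far below the controls relative to the spread within either group (log2 fold change -0.33, SE 0.0342, FDR = 2.07e-07). RAB20, a GTPase of phagosomes and endosomes, had 11.8, 13 and 11.3 CPM in the si-N6AMT1 libraries and 14, 13.7 and 14 CPM in the si-CN libraries. The groups did not overlap, but the gene missed the threshold (log2 fold change -0.21, SE 0.0751, FDR = 0.0529) and passed it without si-N6AMT1 replicate 2 (FDR = 0.0262) and after the correction for GC content (FDR = 0.0259). RAB31, which moves cargo between the trans-Golgi network and endosomes and is named here after its values were seen, was just outside the threshold as well (log2 fold change -0.10, SE 0.0383, FDR = 0.0583) and passed it without si-N6AMT1 replicate 3 (FDR = 0.0372) or si-CN replicate 1 (FDR = 0.0259). The 3 RAB5 genes, which drive early endosome fusion, had log2 fold changes of 0.03 (RAB5A), 0.02 (RAB5B) and -0.00 (RAB5C), with standard errors of at most 0.0275. No early endosome gene was called upregulated by edgeR or DESeq2, and 0 of the 7 rose at an unadjusted p under 0.05. Over all tested genes, edgeR called 9.78% upregulated, and 14.4% of those at 10 CPM or more.

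Sequence in 3′ UTRs is shown because TTCACAT and TCACATA, which share 6 bases, were more frequent among all downregulated genes in earlier results of these same data, so their presence in RAB genes is a description and no independent evidence. Only the sense strand of annotated 3′ UTRs of at least 50 bases was searched. At least 1 of the pair was held by 5 of 8 downregulated RAB genes (62.5%), 2 of 7 upregulated (28.6%) and 12 of 36 not called (33.3%). Over all tested protein-coding genes the share was 22.5% (2957 of 13160), and it was 44.2% of those downregulated and 11.9% of those upregulated. RAB genes have long 3′ UTRs, with a median of 2146 bases among the 51 tested and 2567.5 among the 8 downregulated compared with 1339 over all genes. Among tested protein-coding genes with at least 2000 bases of 3′ UTR the share with a site was 45.2%, and among RAB genes of that length it was 66.7% (18 of 27). Below that length it was 9.61% of tested protein-coding genes and 4.17% of RAB genes (1 of 24). RAB21, with 14613 bases of 3′ UTR, held 4 sites. Windows of 30 bases (GRCh37, read 5′ to 3′ on the gene's strand) are shown for 4 of the 5 downregulated genes with a site, for RAB31 and for both upregulated genes with a site, and capitals mark the matched 7 bases or the 8-base run that contains both sequences.
RAB21 (chr12:72180532-72180561, plus strand): tattgctgttgTCACATAtttttgcctctg
RAB21 (chr12:72184506-72184535, plus strand): ggttttaaattTTCACATAaattgtgtctt
RAB21 (chr12:72186634-72186663, plus strand): gtgcacacatgTTCACATtctgtgtttgat
RAB21 (chr12:72191232-72191261, plus strand): aaactttgtatTTCACATgaaaataaattc
RAB33B (chr4:140395957-140395986, plus strand): taactgaagtgTTCACATtcactaattttg
RAB6A (chr11:73388182-73388211, minus strand): caaatggctctTTCACATgtgctttattag
RAB13 (chr1:153954460-153954489, minus strand): ggcttggagggTCACATAggtagatggtaa
RAB31 (chr18:9861506-9861535, plus strand): gcacaccaggaTTCACATAaacattgtatc
RAB10 (chr2:26359587-26359616, plus strand): gacctcttggcTCACATAagcaaacaacat
RAB27B (chr18:52557522-52557551, plus strand): tggtgttcagcTTCACATttcattttttct
RAB27B (chr18:52557867-52557896, plus strand): catgtcattaaTCACATAaaaattgataat
RAB21 and RAB31 held the 8-base run. RAB27B held both 7-base sequences separately and yet had the largest rise of the called RAB genes. Among the 19 RAB genes with a site the median change on the log2 scale was -0.01, from -0.51 (RAB43) to 0.51 (RAB27B), and the 32 without one had a median of 0.03. RAB38, RAB1B and RAB14 were downregulated with neither sequence in their annotated 3′ UTR. A match says only that these letters are present and does not show that anything binds there.

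Of the 8 tested recycling genes, RAB14 fell and RAB11B rose (12.5% each, where 11.5% and 9.78% of all tested genes were called down and up). Both were among the 6 at 10 CPM or more (16.7% each), where 18.4% and 14.4% of all tested genes were called. RAB14 (ENSG00000119396, chr9:123940411-123985292, minus strand), which links the trans-Golgi network with endosomes, had 163, 167 and 167 CPM in the si-N6AMT1 libraries and 172, 177 and 174 CPM in the si-CN libraries. The groups did not overlap and the fall was the smallest among the downregulated RAB genes (log2 fold change -0.07, SE 0.0247, FDR = 0.0344). Its call was lost in every fit that left out a library except si-CN replicate 1 (FDR from 0.0661 to 0.153) and after the correction for GC content (log2 fold change -0.03, FDR = 0.402). RAB11B (ENSG00000185236, chr19:8454865-8469318, plus strand), a GTPase of recycling endosomes, had 64.8, 65.4 and 64.7 CPM in the si-N6AMT1 libraries and 56.7, 60.9 and 61.2 CPM in the si-CN libraries. It was higher in every knockdown library (log2 fold change 0.12, SE 0.0363, FDR = 0.0161), but the call was lost without si-N6AMT1 replicate 2 (FDR = 0.0580), without si-CN replicate 1 (FDR = 0.109) and after the correction for GC content, which lowered its log2 fold change to 0.07. Its paralog RAB11A had 153 ± 7.32 CPM in si-N6AMT1 and 148 ± 2.18 CPM in si-CN libraries (SD, n = 3) and was not called (log2 fold change 0.05, SE 0.0302, FDR = 0.273), although after the correction for GC content it was (log2 fold change 0.10, FDR = 0.0237).

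Of the 9 tested genes of late endosomes, lysosomes and autophagy, RAB38 fell and RAB12 rose. This was 11.1% each, where 11.5% and 9.78% of all tested genes were called down and up. Of the 8 at 10 CPM or more it was 12.5% each, where 18.4% and 14.4% of all tested genes were called. RAB38 (ENSG00000123892, chr11:87846419-87908611, minus strand), which delivers cargo to lysosome-related organelles such as melanosomes, had 12.2, 10.6 and 11.9 CPM in the si-N6AMT1 libraries and 13.5, 13.5 and 14.8 CPM in the si-CN libraries. The groups were apart (log2 fold change -0.27, SE 0.0778, FDR = 0.0156), with no call without si-N6AMT1 replicate 2 (FDR = 0.0977) or si-CN replicate 3 (FDR = 0.0968). Its close relative RAB32, named here for comparison, had a log2 fold change of -0.06 (FDR = 0.397). RAB12 (ENSG00000206418, chr18:8609435-8639381, plus strand), which sends transferrin receptor to lysosomes and is a substrate of the kinase LRRK2, had 53.6, 52.4 and 52.6 CPM in the si-N6AMT1 libraries and 47.5, 48.5 and 48.7 CPM in the si-CN libraries. It was higher in each knockdown library (log2 fold change 0.13, SE 0.0366, FDR = 0.0114). RAB7A, the most abundant member, had 404, 408 and 414 CPM in the si-N6AMT1 libraries and 414, 404 and 407 CPM in the si-CN libraries. These values overlapped almost fully, and the difference was small and precise (log2 fold change 0.00, SE 0.0214, FDR = 0.992).

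Genes of exocytosis held 4 of the 7 upregulated RAB genes and 1 of the 8 downregulated. The 4 were among 10 tested genes of this role (40.0%), where 9.78% of all tested genes were upregulated. At 10 CPM or more they were 4 of 7 (57.1%), where 14.4% of all tested genes were. Again the role was not tested as a set. DESeq2 called 2 of the 10 upregulated and 0 downregulated. RAB27B (ENSG00000041353, chr18:52385091-52562747, plus strand), which docks secretory granules and exosome-bearing endosomes at the plasma membrane, had 58.9, 57.4 and 51.5 CPM in the si-N6AMT1 libraries and 38.4, 41.7 and 38.1 CPM in the si-CN libraries. The lowest knockdown library exceeded the highest control by a wide margin (log2 fold change 0.51, SE 0.0487, FDR = 6.45e-08), a 1.42-fold rise. RAB10 (ENSG00000084733, chr2:26256953-26360323, plus strand), which carries glucose transporter and basolateral cargo to the surface, had 117, 121 and 119 CPM in the si-N6AMT1 libraries and 106, 106 and 108 CPM in the si-CN libraries. It was higher in every knockdown library (log2 fold change 0.16, SE 0.0271, FDR = 0.000131). RAB13 (ENSG00000143545, chr1:153954093-153958834, minus strand) was the one gene of this role that fell, with 92.9, 91.8 and 94.6 CPM in the si-N6AMT1 libraries and 102, 101 and 100.0 CPM in the si-CN libraries. The groups were apart (log2 fold change -0.11, SE 0.0284, FDR = 0.00546), and 57.6% of its 31-base words are shared with ENSG00000285641, an overlapping gene on the same strand that had 4 to 34 counts per library.

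RAB8A and RAB8B, which take vesicles from the Golgi to the plasma membrane and to cilia, rose by similar amounts. RAB8A (ENSG00000167461, chr19:16222699-16245044, plus strand) had 76.7, 76.5 and 73.4 CPM in the si-N6AMT1 libraries and 69.6, 70.5 and 69.9 CPM in the si-CN libraries. RAB8B (ENSG00000166128, chr15:63481759-63559975, plus strand) had 71.9, 74.4 and 70.1 CPM in the si-N6AMT1 libraries and 68.6, 68.1 and 63.5 CPM in the si-CN libraries. Neither gene's groups overlapped, with log2 fold changes of 0.11 (SE 0.0323, FDR = 0.0177) and 0.11 (SE 0.0367, FDR = 0.0287). Both calls were lost without si-N6AMT1 replicate 1 (FDR = 0.0586 and 0.0511), si-N6AMT1 replicate 2 (FDR = 0.0734 and 0.143) or si-CN replicate 3 (FDR = 0.0542 and 0.190). RAB8A shares 37.8% of its words with the lncRNA ENSG00000269243 on the opposite strand, whose count ran from 7 to 143 and was lowest in si-N6AMT1 replicate 1. The 3 tested RAB3 genes, which act in regulated exocytosis, were not called, with log2 fold changes of -0.14 (RAB3A), 0.00 (RAB3B) and 0.09 (RAB3D).

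The last group joined RAB23, RAB28 and the RAB40 genes, which act at cilia or in ubiquitin ligases or are less studied. Of its 5 tested genes, 3 of them at 10 CPM or more, 0 were called by edgeR or DESeq2, and 0 had an unadjusted p under 0.05. Over all tested genes, edgeR called 11.5% downregulated and 9.78% upregulated, and 18.4% and 14.4% of those at 10 CPM or more. RAB40B, a SOCS-box protein of ubiquitin ligases, had the highest log2 fold change of the uncalled RAB genes, with 5.15, 4.75 and 6.24 CPM in the si-N6AMT1 libraries and 4.23, 4.42 and 4.90 CPM in the si-CN libraries. These overlapped (log2 fold change 0.25, SE 0.126, FDR = 0.180), and without si-N6AMT1 replicate 3 the log2 fold change was 0.13 (FDR = 0.597). Apart from RAB20, the uncalled RAB genes whose groups did not overlap were RAB17, RAB35 and RAB5A, singled out after their values were seen, with FDR of 0.108, 0.165 and 0.491.

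Paralogs of a called gene were compared as shares of their subfamily's TPM, library by library. In the RAB27 pair, RAB27B made up 43.3%, 47.4% and 42.6% in si-CN and 56.3%, 55.8% and 52.3% in si-N6AMT1 libraries. RAB27A, which shares its role in secretion, was not called (log2 fold change -0.10, SE 0.0560, FDR = 0.239). Per length of the reference transcript, RAB27A was the more abundant member in each control and RAB27B in each knockdown library. The lengths were 7003 bases for RAB27B and 3447 for RAB27A. By CPM, RAB27B was higher in every library, with 38.4, 41.7 and 38.1 against 24.7, 22.8 and 25.3 in si-CN. The order in controls thus depends on the transcript lengths used. In the RAB1 pair, RAB1A made up 33.4%, 33.9% and 35.1% in si-CN and 36.4%, 37.5% and 38% in si-N6AMT1 libraries. Neither pair overlapped between groups (two-sided exact permutation test over libraries, p = 0.1 in both cases, the smallest possible). The subfamilies were chosen by a call in these same libraries, so their shares restate the calls and add no support to them. Over the 6 subfamilies compared no p could fall under 0.05 with 3 libraries a group, before or after adjustment.

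The other 4 subfamilies overlapped between groups. RAB2A made up 68.6% ± 1.08 in si-CN and 66.5% ± 1.21 in si-N6AMT1 libraries (SD, n = 3, two-sided exact permutation test, p = 0.2), beside RAB2B, which was not called (log2 fold change -0.01, SE 0.0452, FDR = 0.930). RAB6A made up 97.3% of the RAB6 pair in si-CN and 97.1% in si-N6AMT1 libraries (same test, exact p = 0.3), and RAB6B, known mainly from neurons, was not called (log2 fold change -0.03, SE 0.0946, FDR = 0.852). RAB8A made up 66.2% of the RAB8 pair in both groups (exact p = 0.9), and RAB11B 55.3% of the RAB11 pair in si-CN and 56.6% in si-N6AMT1 libraries (exact p = 0.3).

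**Figure D3:**
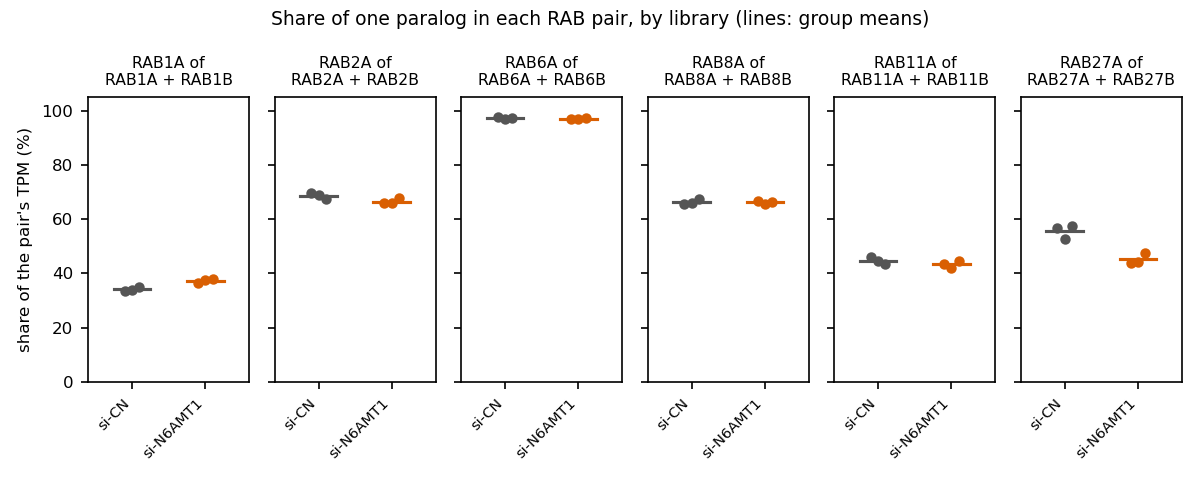
Share of the first-named paralog in the summed TPM of 6 RAB pairs (percent, axis from 0), with 1 point per library and group means as lines. The RAB1A share is higher and the RAB27A share lower in all 3 si-N6AMT1 libraries than in any si-CN library. This adds no support to the calls, since the pairs were chosen by a called member in these same libraries.

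Regulators and effectors of RAB proteins were counted from lists chosen with earlier results of these data known, with 117 of 123 genes tested. Of these, 18 were downregulated (15.4%) and 14 upregulated (12%), compared with 11.5% and 9.78% of all tested genes. All of them lay among the 107 regulators at 10 CPM or more, of which they made up 16.8% and 13.1%, slightly below the 18.4% and 14.4% of all tested genes at that level. Among the 8 tested genes of prenylation and membrane cycling, all at 10 CPM or more, 4 were upregulated. By edgeR 0 were downregulated, with 1 lower at an unadjusted p under 0.05, and by DESeq2 0 were downregulated and 2 upregulated. RABGGTB, the beta subunit of the transferase that adds geranylgeranyl lipids to RAB proteins, had 145, 146 and 149.9 CPM in the si-N6AMT1 libraries and 129, 127 and 132 CPM in the si-CN libraries. Every knockdown library was higher (log2 fold change 0.19, SE 0.0267, FDR = 1.52e-05). RABAC1, which frees RAB proteins from GDI, and CHML, an escort protein of the transferase, had log2 fold changes of 0.18 and 0.15 (FDR = 0.00921 and 0.0205). Their calls depended on single libraries. RABAC1 was no longer called without si-N6AMT1 replicate 3 (FDR = 0.0821) or si-CN replicate 3 (FDR = 0.0592) and CHML without replicate 1 or 2 of either group (FDR from 0.0511 to 0.123).

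Exchange factors and GTPase-activating proteins moved both ways. Of 34 GEF genes, 3 were downregulated and 5 upregulated, 10.0% and 16.7% of the 30 at 10 CPM or more. Of all tested genes at that level, 18.4% were downregulated and 14.4% upregulated. CCZ1, part of the exchange factor of RAB7, fell (log2 fold change -0.27, SE 0.0355, FDR = 4.85e-06). CCZ1B, named here as its paralog, fell as well (log2 fold change -0.17, SE 0.0421, FDR = 0.00508). Shared words were not measured for regulators, so how reads were divided between this pair is not known. MADD, which acts on RAB3 and RAB27 (log2 fold change 0.16, SE 0.0322, FDR = 0.000634), DENND3, which acts on RAB12 (log2 fold change 0.17, SE 0.0372, FDR = 0.00147), and DENND4B, which acts on RAB10 (log2 fold change 0.14, SE 0.0296, FDR = 0.00178), rose, and the correction for GC content lowered the log2 fold change of DENND4B to 0.09 (FDR = 0.0395). Of 33 tested GAP genes, 4 were downregulated and 3 upregulated, 12.5% and 9.38% of the 32 at 10 CPM or more. The RAB3GAP1 and RAB3GAP2 proteins form 1 complex that is a GAP for RAB3 and an exchange factor for RAB18, and both genes fell. RAB3GAP1 had 72.4, 72.2 and 69.1 CPM in the si-N6AMT1 libraries and 87.7, 88.7 and 86.8 CPM in the si-CN libraries. The groups were far apart (log2 fold change -0.30, SE 0.0316, FDR = 2.33e-07), while RAB3GAP2 fell less (log2 fold change -0.16, SE 0.0302, FDR = 0.000319). TBC1D5, a GAP for RAB7 that works with retromer, fell (log2 fold change -0.28, SE 0.0477, FDR = 0.000114), and TBC1D2, another GAP for RAB7, rose (log2 fold change 0.17, SE 0.0313, FDR = 0.000319).

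Effectors held most of the downregulated regulators, with 11 of 42 tested genes down (26.2%) and 2 up. This was also the longest of the 4 lists, and its share at 10 CPM or more was 29.7% down (11 of 37) and 5.41% up, where 18.4% and 14.4% of all tested genes at that level were called. RAB11FIP1, a recycling adaptor of RAB11, had 37.4, 33.4 and 34.7 CPM in the si-N6AMT1 libraries and 44.4, 44.6 and 45.5 CPM in the si-CN libraries. All knockdown libraries were lower (log2 fold change -0.35, SE 0.0448, FDR = 3.71e-06). EXOC6B, a subunit of the exocyst tether, had a log2 fold change of -0.32 (FDR = 1.26e-06). APPL1, an adaptor bound by RAB5 and RAB21, had a log2 fold change of -0.25 (FDR = 0.000512), and MYO5A, a motor that moves RAB27A and RAB11 vesicles, of -0.23 (FDR = 0.000752). The median log2 fold change of the 42 effectors was -0.01, near the 0.00 of all tested genes. DESeq2 called 5 of the 42 downregulated and 1 upregulated. No set test was run on these lists.

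**Figure D4:**
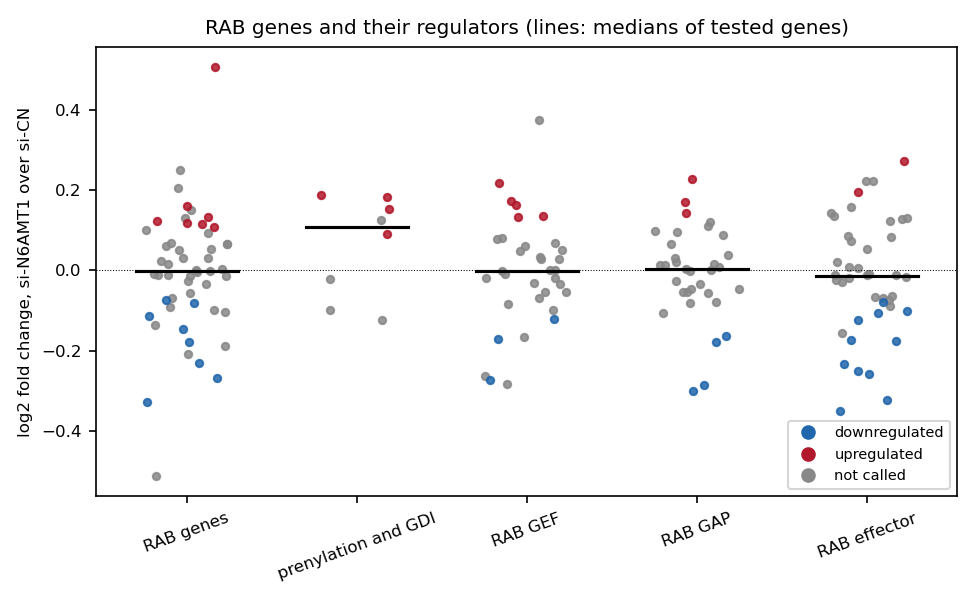
Log2 fold change, si-N6AMT1 over si-CN, of the 51 tested RAB genes and of the 117 tested regulators in 4 lists, 1 point per gene, with medians as lines. Blue and red mark genes with FDR under 0.05, and the median of the prenylation and GDI list lies at 0.11 beside medians near 0 in the other lists.

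Base composition moved with the fold changes of all genes. Among tested genes at 10 CPM or more, the median log2 fold change went from -0.04 in the lowest to 0.04 in the highest of 4 equal groups ordered by GC content of the reference transcript. Of the 15 called RAB genes, 11 lay below the median GC content of all tested genes and 4 above it (RAB13, RAB8A, RAB1B and RAB11B). The median was 39.8% in the 8 downregulated and 41.2% in the 7 upregulated genes, compared with 48.1% over all tested genes. The lowest group held 17 RAB genes, with 5 downregulated and 4 upregulated, and over all genes of that group 28.1% were downregulated and 9.40% upregulated. After each library was corrected for GC content, 7 RAB genes were downregulated and 7 upregulated, 6 and 6 of them the genes called without it.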

How the data were processed

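RNA was measured in 6 libraries of cells labelled MDA-MB-453, grouped by the sample labels into si-N6AMT1 and si-CN (n = 3 each). Reads of stranded mRNA libraries were trimmed with Trim Galore and assigned to transcripts of hg19 by kallisto v0.46.0, and the authors deposited the resulting estimated counts (expected counts), added up by gene, as whole numbers that were not normalized. The strand option is not given in the sources used here, and kallisto divides reads among similar transcripts, so counts of paralogs and overlapping genes are uncertain. Library totals of 19739247 to 21289740 counts limit the precision of low genes. All 6 columns were matched to samples by name.

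Symbols, positions, transcript lengths and 3′ UTRs came from GENCODE v44 on GRCh37, whereas the authors used an earlier release. Counts were filtered with edgeR v4.0.16 (minimum count of 10, 17320 genes), scaled by TMM and tested across the whole table by the quasi-likelihood test with Benjamini-Hochberg adjustment (FDR under 0.05) in R v4.3.3, without covariates. The standard error was taken as the size of the log2 fold change over the root of the F statistic. For CPM, library sizes were multiplied by the TMM factors. TPM was computed with reference transcript lengths. Single values were compared by exact permutation over libraries with scipy v1.17.1. Pairs of libraries in a group exceeded sampling noise (chi-square over its degrees of freedom 1.37 to 1.77, and 6.89 to 7.80 between groups), so none was an exact copy of another. The division of reads among similar transcripts also adds spread. These values therefore cannot tell separate cultures from repeat libraries of 1 culture. The common coefficient of variation estimated by edgeR was 1.85%. The procedure was tested on simulated counts.

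The members and gene lists were chosen with earlier results of these data known. Named genes were N6AMT1, every called RAB gene and its tested paralogs, the 5 RAB genes with the highest TPM, the 3 uncalled RAB genes with the largest absolute log2 fold change and, per regulator list, the 4 called genes with the lowest FDR. Alternatives were RLE size factors, DESeq2 v1.42.0, no expression filter, mitochondrial genes left out, the replicate number as a block, the longest transcript for TPM, each library left out and, added after the data were seen, a GC correction. RAB7B was not analysed here, and a few markers and regulators are not reported here.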

Additional observations from a re-analysis of the deposited data

How the results depend on the processing

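N6AMT1 stayed downregulated in every alternative that gave an adjusted p, with a log2 fold change of -1.18 to -1.04, and DESeq2 gave it, like RAB40B, an adjusted p of NA. With DESeq2, 3 RAB genes were downregulated and 3 upregulated, all among the 15, and 10 and 7 regulators. That test called 1139 and 796 of the 17320 genes that passed the edgeR filter. Leaving out 1 library gave 6 to 8 downregulated and 4 to 7 upregulated RAB genes, the 4 without si-N6AMT1 replicate 2, and 13 to 19 and 11 to 13 regulators. With the replicate number as a block, 9 RAB genes were downregulated and 7 upregulated, and 15 and 13 regulators. RAB14 lost its call, and RAB43 (FDR = 0.0343) and RAB31 (FDR = 0.0445) gained one. The numbers did not pair the libraries, since same-numbered deviations correlated at -0.109, -0.0715 and -0.00779 and no library correlated best with its own number. No expression filter gave 10 downregulated RAB genes, with RAB43 and RAB31 added, and the GC correction 7 and 7, and 17 and 11 regulators, 14 and 11 of them called without it. RLE size factors and leaving out mitochondrial genes gave 8 and 7. Not called under any alternative, RAB6B, RAB2B, RAB7A and RAB5C changed sign under at least 1. With the longest transcript 41 RAB genes had at least 10 TPM in si-CN, compared with 40. The causes of these changes were not tested. Genes below 10 CPM are limited by depth.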
